A study of Mus musculus with 2 samples.

Results

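The genes examined were 36 genes of the NRF2 antioxidant response, listed by name from what is known of the pathway. Earlier results of these data were known when the list was made. It holds 3 regulators of NRF2 and the enzymes, redox proteins and transporters that handle glutathione, thioredoxin, peroxides, superoxide, quinones and NADPH. All 36 had a probe among the 20651 genes that could be named on the arrays. All 36 were also well above background on both arrays, which was true of 16882 of the named genes. NRF2, encoded by *Nfe2l2*, is normally bound by KEAP1, an adaptor that hands it to a CUL3 ubiquitin ligase for degradation. Oxidants and electrophiles modify cysteines of KEAP1, after which NRF2 accumulates, pairs with small MAF proteins in the nucleus and binds antioxidant response elements, sites that the repressor BACH1 can also occupy. The genes it induces make and recycle glutathione and thioredoxin, and macrophages, which release superoxide and peroxide when activated, depend on such enzymes for their own protection.

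RAW264.7 is an established macrophage line that came from the ascites of a male BALB/c mouse with a tumor induced by Abelson murine leukemia virus. Both groups were RAW264.7 cells grown alike for 24 h in DMEM with heat-inactivated fetal serum, 1 culture with vehicle control and 1 culture with 10 μM IR-61, a near-infrared heptamethine cyanine dye that enters mitochondria. RNA of each culture was read on a separate Agilent mouse array in 1 colour, on the same slide and in the same scan. A single line with 1 culture and 1 array per condition has no replicate error, so the values are compared without a test or p-value.

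Signals below are the deposited intensity for vehicle, and for IR-61 the deposited intensity brought to the 75th percentile of the vehicle array, because the IR-61 array was brighter by a factor of 1.40 at that percentile. A difference is the log2 signal with IR-61 minus that with vehicle. Signals of different genes come from different probes and are compared only between the arrays. Of the 36 genes, 35 were read by 1 spot per array, and their only error is the SD of a difference expected from probes printed several times on an array. This spot SD had a median of 0.09 over the 36 genes and says nothing about the spread between cultures.

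The macrophage label was checked against 10 markers, of which 9 had a named probe, and all 9 were well above background on both arrays. *Cd68* was not analysed here. Their summed signal was 316612 with vehicle and 369274 with IR-61, and *Tyrobp* among them was at 120586 and 103046. Of the 9 markers 4 had a positive and 5 a negative difference, with a median of −0.04. *Csf1r* was at 0.06, with −0.64 and −0.12 on its other probes, *Mertk* at −0.04, *Ptprc* at −0.09 and *Lyz2* at −0.18. *Adgre1*, which encodes a surface receptor typical of mouse macrophages, went from 52489 to 106918, a rise of 1.03, with 0.85 on its other probe. *Fcgr1* went from 2795 to 5562 and *Itgam* from 20486 to 32232, differences of 0.99 and 0.65, and the other probes of *Itgam* gave 0.41 and 0.12. *Spi1*, encoding the myeloid factor PU.1, went from 1002 to 563, a difference of −0.83. Among markers of other cells, the sums with vehicle and IR-61 include genes not well above background. They were 2112 and 2184 for the 5 T cell genes, of which 4 were measured, with *Cd4* at 1354 and 1427. For the 5 epithelial genes, of which 3 were measured, the sums were 401 and 266, with *Krt18* at 218 and 153. For the 5 endothelial genes, of which 4 were measured, they were 5661 and 4669. *Vwf* among these was at 2603 and 1717 and *Kdr* at 2318 and 2121. Of the B cell genes, *Ms4a1* went from 353 to 128 and *Cd79b* from 289 to 136, differences of −1.46 and −1.09 on dim probes with a spot SD of 0.23. The epithelial genes *Epcam* and *Cdh1*, the T cell gene *Cd3g* and the endothelial gene *Tek* did not stand well above background with either treatment. The 5 fibroblast genes were all measured, summing to 48340 and 63257, and *Col1a1* among them went from 27148 to 41821, a difference of 0.62, *Col1a2* from 15029 to 16093, a difference of 0.10, and *Col3a1* from 5152 to 4061, a difference of −0.34. The part of these markers in the differences given below was not tested.

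The antioxidant genes as a group lay where the measured genes as a whole lay. No member was past 2-fold in either direction, 0 of 36 higher and 0 of 36 lower, while 1.99% of all measured genes were higher by 2-fold or more and 1.39% were lower. At 1.5-fold, 1 of 36 was higher, *Me1*, and 1 of 36 was lower, *Glrx*, against 9.79% and 5.69% of all measured genes. The median difference of the 36 genes was 0.10, and that of all 16882 measured genes was also 0.10. The quartiles were −0.23 and 0.34 for the members and −0.15 and 0.34 for all genes, and the SD across genes was 0.35 and 0.44. The members were brighter: 6379 of all measured genes and 1 member, *Nqo1*, had a mean log2 signal under 8. On the vehicle array the SD between spots was 0.178 for log2 signals of 6 to 10 and 0.070 over 10. The part of dim probes in the shares past a limit and in the SD across genes was not tested. A positive difference was found for 21 members, or 58.3%, and for 61.2% of all measured genes, a negative one for 15 members, and 17 members lay above the median of all genes and 19 below it.

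**Figure D1:**
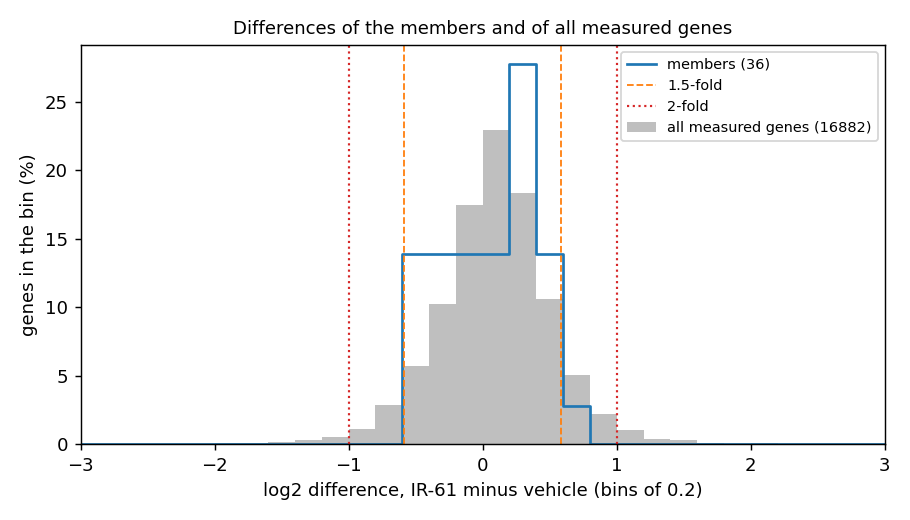
Share of genes, in percent, in bins of 0.2 of the log2 difference between IR-61 and vehicle, as grey bars for the 16882 genes measured on both arrays and as a blue line for the 36 members. Dashed and dotted lines mark 1.5-fold and 2-fold, and the members lie between −0.59 and 0.61.

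Zero on this scale depends on how the arrays are scaled. Without scaling the median of all measured genes was 0.59 in place of 0.10, and that of the members was 0.59 as well. The division of all genes into higher and lower depended on it too: of the genes past 2-fold 41.2% were lower here, 336 being higher and 235 lower, and 54.2% were lower with scaling by the array median, 249 being higher and 295 lower. At 1.5-fold the share that was lower was 36.7% here, from 1653 higher and 960 lower genes, and 51.9% with the array median. Of 12 genes often used as references, 9 had a negative difference, with a median of −0.13. Members with a positive difference numbered 31 without scaling, in place of 21.

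The regulators did not reach 1.5-fold. *Nfe2l2*, the gene of NRF2 itself, had a signal of 84441 with vehicle and 68482 with IR-61, a difference of −0.30 with a spot SD of 0.09. *Keap1*, its inhibitor, had 2640 and 2829, a difference of 0.10 that was about the size of its spot SD of 0.09 and equal to the median of all genes. *Bach1*, the repressor at the same sites, had 8833 and 11707, a difference of 0.41. The mRNA of the activator was thus lower on the IR-61 array and that of the repressor higher, except that *Nfe2l2* was at 0.19 without scaling. Relative to the median of all genes, *Nfe2l2* lay between −0.41 and −0.15 and *Bach1* between 0.28 and 0.48 over the settings tried. These values are of mRNA, and the NRF2 protein, whose stability KEAP1 controls, was not measured on the arrays.

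Glutathione synthesis was divided. *Gclc*, the catalytic subunit of the ligase that joins glutamate and cysteine, had a signal of 4168 with vehicle and 5282 with IR-61, a difference of 0.34. *Gclm*, the modifier subunit of the same ligase, had 1815 and 1527, a difference of −0.25. Both are familiar NRF2 targets, and their differences had opposite signs, although *Gclm* turned to 0.24 without scaling. Glutathione synthetase, encoded by *Gss* and adding the glycine, had 262 and 179. Its difference of −0.55 was the lowest of the 4 genes, on a dim probe with a spot SD of 0.23. It was past 1.5-fold with the array median, at −0.63, and with a trend over the array removed, at −0.59, and it was −0.30 with normexp background correction and −0.06 without scaling. *Gsr*, the reductase that restores glutathione from its disulfide, had 10208 and 12473, a difference of 0.29, while its other probe gave −0.03.

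In the thioredoxin system, 3 of 5 genes had positive differences and none passed 1.5-fold. Thioredoxin reductase of the cytosol, encoded by *Txnrd1*, gave the highest, with a signal of 27698 with vehicle and 35381 with IR-61 and a difference of 0.35. Its mitochondrial counterpart *Txnrd2* had 6878 and 8675, a difference of 0.33. The mitochondrial thioredoxin *Txn2* had 21138 and 26296, a difference of 0.31. Both mitochondrial genes and the cytosolic reductase thus lay close together, between 0.31 and 0.35, and were positive in each of the 13 settings. All have 1 bright probe, so the mean over probes and the settings on dim probes could not move them. The cytosolic thioredoxin *Txn1* had 134325 and 114029, a difference of −0.24. *Srxn1*, the sulfiredoxin that rescues overoxidized peroxiredoxins, had 32923 and 26807, and its difference of −0.30 was the lowest of the system. Without scaling *Txn1* and *Srxn1* turned to 0.25 and 0.19. *Txnrd1* and *Srxn1*, both familiar NRF2 targets, therefore stood on opposite sides of the median of all genes.

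The 6 peroxiredoxins, which reduce peroxides through a reactive cysteine, lay between −0.09 and 0.52. *Prdx4*, the form of the endoplasmic reticulum, had a signal of 10067 with vehicle and 14486 with IR-61. Its difference of 0.52 was the highest of the family and 5.56 times its spot SD, and it stayed inside the 1.5-fold limit. The mitochondrial *Prdx3* was the lowest at −0.09, with signals of 3838 and 3610, and it was −0.17 with the array median, −0.14 with quantile normalization and 0.40 without scaling. It was the best read of all members, with 10 spots per array, and its scaled log2 signal was 1.60 ± 0.08 with vehicle and 1.51 ± 0.07 with IR-61 (SD between spots). The spots of *Prdx3* overlapped between the arrays, the brightest IR-61 spot, at 1.62, lying above the vehicle mean. *Prdx1*, *Prdx2* and *Prdx5* had differences of 0.18, 0.25 and −0.06, and *Prdx5* turned to 0.43 without scaling. *Prdx6* had 4 probes that disagreed. The brightest went from 22264 to 28224, a difference of 0.34, and the others gave −0.06, −0.32 and −0.49, so that the mean over its probes was −0.13. No direction is given for *Prdx6*, and the counts of members by sign take its brightest probe.

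The glutathione peroxidases included 2 positive and 2 negative differences. *Gpx1*, the cytosolic and mitochondrial form that clears hydrogen peroxide, had a signal of 68065 with vehicle and 48217 with IR-61, a difference of −0.50 that was 5.27 times its spot SD. *Gpx4*, which reduces lipid peroxides in membranes, had 23824 and 20261, a difference of −0.23. The secreted *Gpx3* had 482 and 637, a difference of 0.40. *Gpx7*, a form of the endoplasmic reticulum, had 945 and 1275, and its difference of 0.43 was the highest of the family. The positive differences were thus those of the secreted form and the form of the endoplasmic reticulum, both on dim probes with spot SDs of 0.23 and 0.19. *Gpx1* was negative in each of the 13 settings, at −0.01 without scaling, and *Gpx4* turned to 0.25 there.

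Among catalase and the superoxide dismutases, the lowest value was that of the mitochondrial enzyme. *Sod2*, the manganese superoxide dismutase and also a well-known NF-κB target, had a signal of 23881 with vehicle and 16127 with IR-61. Its difference of −0.57 was 6 times its spot SD and lay just inside 1.5-fold. It was past that limit with the array median at −0.65, with the 75th percentile over detected probes at −0.60, with quantile normalization at −0.62, with cyclic loess at −0.60 and in the deposited log2 values at −0.61, and it was −0.47 with normexp and −0.08 without scaling. The cytosolic copper and zinc enzyme *Sod1* had 43709 and 55584, a difference of 0.35, the highest of the 4 genes. *Sod1* and *Sod2* thus stood apart by their sign, and each kept it in the 13 settings. Each has 1 bright probe, so the mean over probes and the settings on dim probes could not move it. Catalase, encoded by *Cat*, had 3566 and 3814, and its difference of 0.10 was equal on both of its probes and equal to the median of all genes. The secreted *Sod3* had 285 and 341, a difference of 0.26 with a spot SD of 0.23.

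Both glutaredoxins, which use glutathione to reduce mixed disulfides, had negative differences on their brightest probes. *Glrx*, the cytosolic form, had a signal of 1305 with vehicle and 867 with IR-61. Its difference of −0.59 was the only fall past 1.5-fold among the 36 genes and was 6.25 times its spot SD. The fall lay at the limit, since *Glrx* was inside it at −0.58 with quantile normalization and in the deposited log2 values, at −0.54 with normexp and at −0.10 without scaling. *Glrx2*, the mitochondrial and nuclear form, had 130684 and 116973, a difference of −0.16. Its other probes were far dimmer and went from 869 to 1079 and from 9414 to 11019, differences of 0.31 and 0.23. The value of *Glrx2* was positive without scaling and as a mean over probes, at 0.33 and 0.13. No direction is given for *Glrx2*, and the counts of members by sign take its brightest probe.

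The genes of glutathione transfer and export had a median of −0.06, with 2 positive and 3 negative differences. *Abcc1*, the pump MRP1 that exports glutathione conjugates, had a signal of 1088 with vehicle and 741 with IR-61, a difference of −0.55 and 5.87 times its spot SD. It was past 1.5-fold with the array median, at −0.64, and with the 75th percentile over detected probes, at −0.59, and it was −0.52 with quantile normalization and −0.07 without scaling. The omega-class transferase *Gsto1* had 20802 and 24719, and its difference of 0.25 was the highest of the group. *Gstm1*, a mu-class transferase and a classical NRF2 target, had 60528 and 52704 on its brighter probe, a difference of −0.20. The other probe of *Gstm1* went from 6643 to 3577, a difference of −0.89. Both probes were therefore lower on the IR-61 array, by unequal amounts, and the brighter one turned to 0.29 without scaling. The microsomal transferase *Mgst1* was at 0.07 and the pi-class transferase *Gstp1* at −0.06, and the other probe of each gave 0.08 and −0.06.

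The 3 members that are enzymes of quinone, NADPH and biliverdin metabolism were all positive with the scaling used here. *Me1*, the cytosolic malic enzyme that produces NADPH, rose from a signal of 739 with vehicle to 1131 with IR-61. This difference of 0.61 was the only rise past 1.5-fold among the 36 genes, with a spot SD of 0.19. The rise was not shared by the other probes of *Me1*, which went from 144 to 139 and from 256 to 278, with differences of −0.05 and 0.12. It was inside 1.5-fold at 0.53 with the array median, at 0.58 with the 75th percentile over detected probes, at 0.54 with normexp and at 0.23 as a mean over probes. *Nqo1*, the quinone reductase that is the usual readout of NRF2 activity, had a signal of 142 with vehicle and 150 with IR-61. Its difference of 0.08 was smaller than its spot SD of 0.23 and ranged from −0.06 to 0.10 over the settings with scaling. *Blvrb*, biliverdin reductase B, had 43958 and 59413, a difference of 0.43 and 4.60 times its spot SD.

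**Figure D2:**
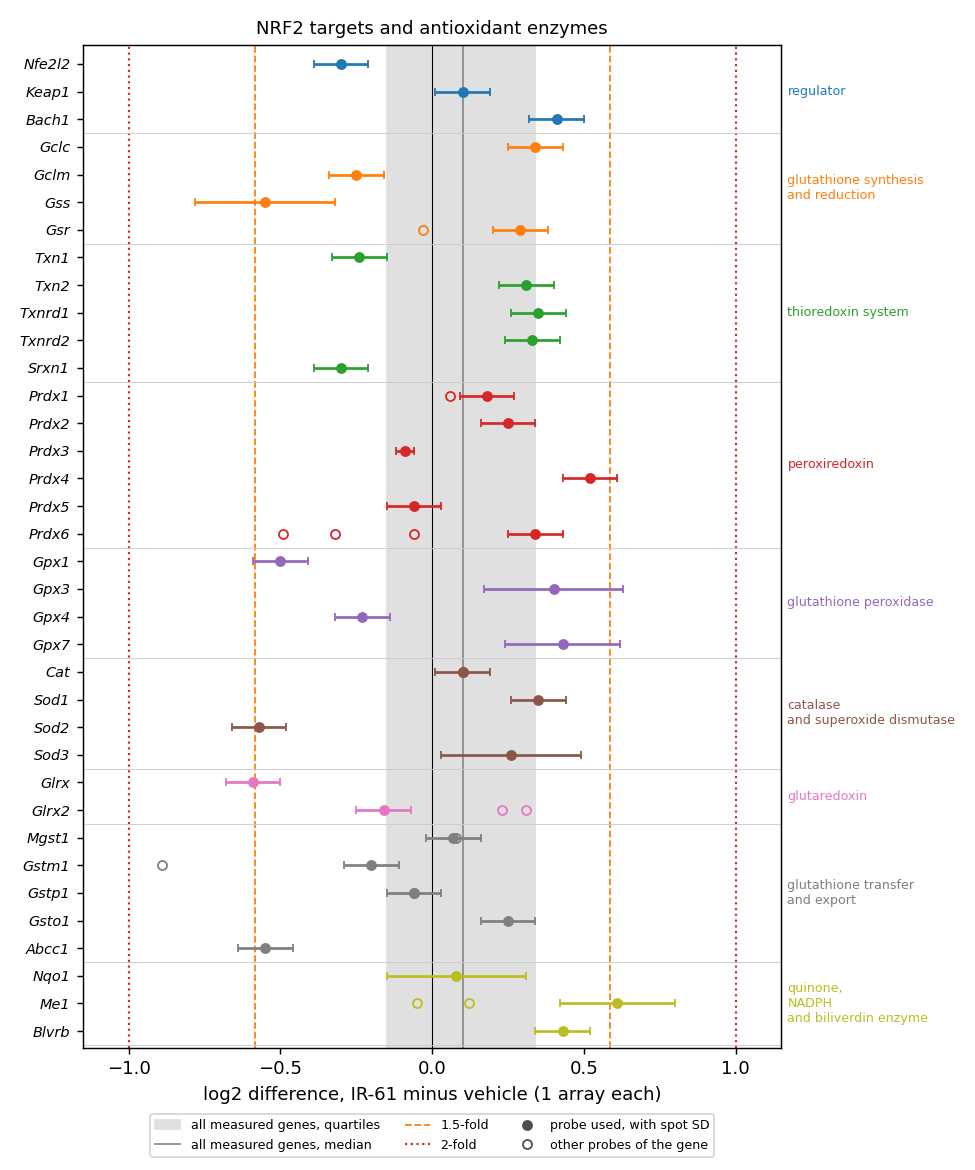
Log2 difference between IR-61 and vehicle for each of the 36 genes, by role, with filled points for the probe used, bars for the SD expected between spots and open points for other probes of the gene. The grey band and line are the quartiles, −0.15 and 0.34, and the median, 0.10, of all measured genes, and among the filled points only *Me1* at 0.61 and *Glrx* at −0.59 are past the dashed 1.5-fold lines.

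Of the 36 genes, 14 lay within the quartiles of all genes, 10 above the upper quartile and 12 below the lower. The genes described above as mitochondrial did not share a sign: *Txn2* and *Txnrd2* were at 0.31 and 0.33, *Prdx3* at −0.09, positive without scaling, and *Sod2* at −0.57. *Gpx1* and *Glrx2*, described as mitochondrial only in part, were at −0.50 and, on the brightest probe, −0.16. *Nqo1*, *Gclc*, *Gclm*, *Txnrd1* and *Srxn1*, the targets most often read for NRF2 activity, were at 0.08, 0.34, −0.25, 0.35 and −0.30, with 3 positive and 2 negative. Over the 13 settings 18 members were positive in every one, 5 were negative in every one, and 13 had both signs. For the 27 members read by 1 probe, the mean over probes and the settings on dim probes return the main value by construction. Relative to the median of all genes in the same setting, 16 members were above it in every setting, 14 below it in every setting, and 6 on both sides.

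Differences also varied with the brightness of the probes. Among genes with a mean log2 signal over 16, the median difference was −0.07 over 336 genes and −0.22 over the 6 members there, *Nfe2l2*, *Txn1*, *Prdx1*, *Gpx1*, *Glrx2* and *Gstm1*. Of these 6 members only *Prdx1* was positive on the probe used, and 32.7% of all genes of that brightness were positive. Between 14 and 16, the median was 0.11 over 1285 genes and 0.25 over 12 members, 8 of them positive, where 66.5% of all genes were. Between 12 and 14 it was 0.14 over 2758 genes and 0.31 over 8 members, and between 10 and 12 it was 0.08 over 3124 genes and −0.07 over 6 members. Between 8 and 10 it was 0.02 over 3000 genes and 0.26 over 3 members. Under 8 it was 0.13 over 6379 genes, 65.7% of them positive, and the 1 member there was at 0.08. The part of signal brightness in the members' differences was not tested further.

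The antioxidant response element has a short core, which was searched as TGACNNNGC on both strands of RefSeq promoter windows of the mouse assembly GRCm38.p6. Each window runs from 250 bases before the start of a gene to 50 bases after it. A window was matched for 31 members, some with several, and the members without one were *Gclc*, *Gsr*, *Prdx6*, *Sod3* and *Abcc1*. The core was in at least 1 window of 8 of the 31 members, or 25.8%, and of 2139 of 13421 measured genes with a window, or 15.9%. Over all windows of the table the share was 12.4%, from 4071 of 32851. The 8 members were *Nfe2l2*, *Gclm*, *Txnrd1*, *Srxn1*, *Prdx1*, *Sod1*, *Mgst1* and *Me1*, and their median difference was 0.13 against 0.08 for the 23 without it. Among all measured genes with a window the medians with and without the core were both 0.10. A match describes letters only and is not a binding site shown in these cells. Absence of the core from these windows, as for *Nqo1*, does not show that a gene lacks the element outside them.

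The stretches below show the core in 5 of these promoters, whose genes had differences of both signs, on the strand of the gene with the core in capitals. *Prdx1* (0.18) has it on the opposite strand of chr4:116685446-116685494, a gene of the plus strand, 133 bases before the start. *Me1* (0.61) has it on its own strand at chr9:86695892-86695940, on the minus strand, 6 bases before the start. Read along the strand of the core, *Prdx1* and *Me1* share the same letters, and these contain the AP-1 site TGACTCA. *Gclm* (−0.25) has the core on the opposite strand of chr3:122245403-122245451, plus strand, and *Txnrd1* (0.35) on the opposite strand of chr10:82859094-82859142, plus strand. *Nfe2l2* (−0.30) has it on its own strand at chr2:75704875-75704913, minus strand.
Prdx1: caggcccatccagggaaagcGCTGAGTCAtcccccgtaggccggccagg
Me1: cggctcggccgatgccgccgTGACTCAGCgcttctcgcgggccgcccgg
Gclm: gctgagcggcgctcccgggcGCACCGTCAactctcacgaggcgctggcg
Txnrd1: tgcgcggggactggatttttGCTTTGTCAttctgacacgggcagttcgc
Nfe2l2: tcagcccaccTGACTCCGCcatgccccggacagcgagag

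Other genes of the pathway, 102 in 7 lists, spread more widely than the 36 members while their middle was alike. Of these, 99 had a named probe and 95 were measured on both arrays, with a median difference of 0.09 and an SD of 0.60. At 2-fold 3 of 95 were higher and 5 lower, and at 1.5-fold 12 were higher and 12 lower, while the shares of all measured genes were 1.99% and 1.39% at 2-fold and 9.79% and 5.69% at 1.5-fold. *Gsta1*, *Nnt* and *Ugt1a7c* were not analysed here. Among the partners and degradation factors of NRF2, *Maff*, a small MAF partner, fell from 4147 to 1342, a difference of −1.63. *Sqstm1*, encoding the KEAP1-binding autophagy receptor p62 and itself an NRF2 target, fell from 8154 to 3978, a difference of −1.04 that was −0.97 with normexp and −0.55 without scaling. *Nfe2l1*, the related factor NRF1, fell from a dim 127 to 62.8, a difference of −1.01 that was −0.81 with normexp and −0.52 without scaling. *Btrc*, a ubiquitin ligase subunit that also targets NRF2, rose from 153 to 312, a difference of 1.02 that was inside 2-fold with the array median, at 0.94, with the 75th percentile over detected probes, at 0.99, with normexp, at 0.64, as a mean over probes, at 0.68, and, by less than the rounding, with quantile normalization. Its other probe gave 0.33.

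Among heme and iron genes, *Slc40a1*, the iron exporter ferroportin, rose from 617 to 2632, a difference of 2.09 and the largest rise of the 95 genes. The other 5 of that list lay between −0.20 and 0.31, *Hmox1*, heme oxygenase and a classical NRF2 target, among them at −0.13 with 6915 and 6331. *Hmox1* was named after its values were seen. Of 17 measured glutathione transferases outside the members 11 were positive, where 61.2% of all measured genes were, led by *Mgst2* with a rise of 1.52, from 182 to 520, and the lowest were the mu-class genes *Gstm4* and *Gstm3* at −0.99 and −0.96, with −0.38 on the other probe of *Gstm4* and −0.69 as the mean over its probes. With the array median *Gstm4* and *Gstm3* were past 2-fold, at −1.07 and −1.04, and 7 of the other pathway genes were lower by 2-fold. Of 20 other thiol redox genes, *Txnip*, the inhibitor of thioredoxin, fell most, from 7390 to 2887, with −1.36 and −1.34 on its probes and −0.87 without scaling, and the sestrin *Sesn1* was highest at 0.89. Of 15 producers of NADPH the folate enzyme *Mthfd2* fell most, from 2569 to 717, a difference of −1.84, and *Tkt* of the pentose phosphate pathway was at −0.84. The highest of that list was *Aldh1l2* at 0.98, on a dim probe, and it was 0.29 with normexp and not measured with a log2 signal above 6. Of 8 measured genes of cystine and glutathione handling, *Ggct* and the cystine carrier subunit *Slc3a2* were lowest at −0.71 and −0.63, and *Ggh* was highest at 0.31. Of 17 measured phase 1 and phase 2 enzymes 14 were positive, where 61.2% of all measured genes were, from *Aldh2* at −0.57 to the exporter *Abcc3* at 0.88, with none past 2-fold. Of these positive values, those of *Nqo2*, *Abcc5* and *Esd* turned to −0.26, −0.19 and −0.16 as a mean over probes.

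**Figure D3:**
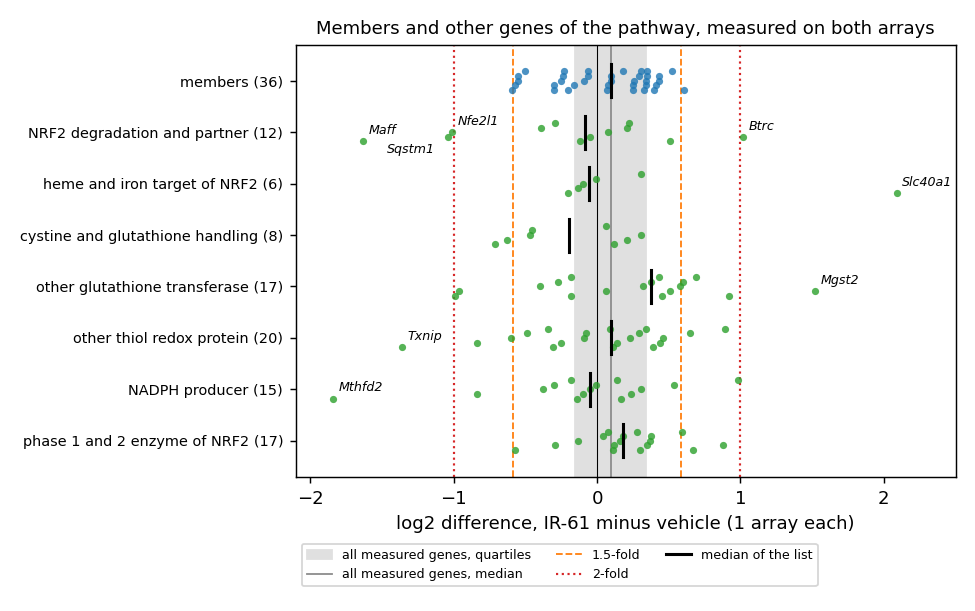
Log2 difference between IR-61 and vehicle for the 36 members and for the 95 measured genes of 7 other lists of the pathway, 1 point per gene, with a black bar for the median of each list and the grey band for the quartiles of all measured genes. The members stay within −0.59 and 0.61, and the other lists reach from −1.84 for *Mthfd2* to 2.09 for *Slc40a1*.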

How the data were processed

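Members and gene lists were chosen with earlier results of these data known. The authors deposited spot intensity from Agilent Feature Extraction (11.0.1.1 in the file headers, 11.0.0.1 in the submitters' processing notes), background-subtracted and detrended within each array but not scaled between arrays, with quality flags. The authors also deposited log2 values, made in a way not given in the sources used here, with a median of 7.16 and quartiles of 4.59 and 10.66 on each array. The dose comes from a legend of the study.

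Control and outlier spots (124 with vehicle, 139 with IR-61) were left out, and none was saturated. Log2 spot values were averaged per probe and reduced by the 75th percentile of their array (10.30 and 10.79). Of 39419 probes, 77.6% and 81.2% were well above background, and 27218 were named by RefSeq accession through a GRCm38.p6 table, used for names only since the array design gives mm9. A gene took its brightest unsaturated probe. The spot SD came from probes printed at least 5 times, in 3 ranges of signal.

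No test was run. 1 marker gene and the sum that needs it are not reported here. Values are printed for the regulators, *Nqo1*, *Gclc*, *Gclm*, *Txnrd1*, *Srxn1*, members past 1.5-fold and the extremes of each role, with other probes that turned the sign or differed by over 0.5, and for extremes of the other lists and some of their genes past 1.5-fold. Values of further members are added to complete each role. Alternatives were other scalings (array median, 75th percentile over detected probes, quantile, cyclic loess, none), the deposited log2 values, normexp with offset 50 (4 IR-61 spots with background above signal took the median background), the mean over probes, outlier spots kept, no filter on dim probes, a log2 signal above 6, a linear trend over the array removed, and a 3-fold limit. Steps were tested on simulated data. Python 3.11.15, numpy 2.4.6, pandas 2.3.3, matplotlib 3.10.9, R 4.3.3 and limma 3.58.1 were used.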

Additional observations from a re-analysis of the deposited data

How the results depend on the processing

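No paired analysis was possible because there was 1 array on each side and nothing was tested. A value counted as unmoved within its spot SD, and a count within 1.5 times. All 36 members were measured in every setting, and no member was lower by 2-fold in any.

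Without scaling the median of all genes went from 0.10 to 0.59, and the other changes in that setting follow this shift. Members higher by 2-fold were then 2, *Me1* and *Prdx4*, members higher by 1.5-fold 19, and members lower by 1.5-fold 0, with a member median of 0.59. The other pathway genes then had 14 higher and 2 lower by 2-fold and a median of 0.58.

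Of all measured genes 336 were higher and 235 lower by 2-fold. These were 124 and 149 with normexp, 182 and 184 with only log2 signals above 6, 921 and 440 with no filter on dim probes, and 2156 and 72 without scaling. By 1.5-fold 1653 were higher and 960 lower, in place of which 865 were higher with normexp, 2782 with no filter on dim probes and 8518 without scaling, where 193 were lower.

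Members higher by 1.5-fold were 0 in place of 1 with the array median, the 75th percentile over detected probes, normexp and the mean over probes. Members lower by 1.5-fold were 4 with the array median, 3 with the 75th percentile over detected probes, 2 with cyclic loess, 2 with the trend removed and 0 with normexp, in place of 1. With quantile normalization and the deposited log2 values the 1 lower member was *Sod2*, not *Glrx*. With normexp the median of all genes was −0.03, the member median minus it was 0.14, and 3 other pathway genes in place of 5 were lower by 2-fold. With the mean over probes the median of the other pathway genes was −0.01. The cause of these moves was not tested. The removed trend was at most 0.050 in size. Dim probes, such as those of *Nqo1* and *Gss*, limit a difference to a spot SD of 0.23.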
